A study of Mus musculus with 60 samples.

Results

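The genes of the chemokine system were examined in the peak lists of mouse dorsal root ganglia after nerve or spinal cord injury. They were taken as the protein-coding genes of the RefSeq annotation of GRCm38.p6 whose symbol is Ccl, Cxcl, Ccr, Cxcr, Ackr, Xcr or Xcl followed by a number, together with Cx3cl1 and Cx3cr1. The rule found 62 of 21887 protein-coding genes. For each gene, peaks were counted in a window of the gene body and 10 kb on either side, in each of 16 deposited peak lists. The members comprised 16 inflammatory ligands, 23 other ligands, 19 receptors and 4 atypical receptors. These roles are labels given to the genes for this report and were not derived from the peaks. The inflammatory ligands were Ccl2, Ccl3, Ccl4, Ccl5, Ccl6, Ccl7, Ccl8, Ccl9, Ccl11, Ccl12, Cxcl1, Cxcl2, Cxcl3, Cxcl5, Cxcl9 and Cxcl10.

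Chemokines are small secreted proteins that steer the migration of leukocytes and other cells along their gradients. They act through G protein-coupled receptors on the target cell, while the atypical receptors bind chemokines and remove or transport them without classical G protein signalling. In sensory ganglia, Ccl2 and its receptor Ccr2 are known for the recruitment of macrophages and for pain, Cx3cl1 and its receptor Cx3cr1 for exchange between neurons and macrophages or microglia, and Cxcl12 with Cxcr4 and Ackr3 for cell positioning.

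C57BL/6 mice 6 to 8 weeks old had sciatic nerve axotomy (SNA), which cuts the peripheral axons of the ganglion neurons, its sham operation (Sham), axotomy of the dorsal columns (DCA), which cuts their central branch in the spinal cord, or laminectomy alone (Lam), and ganglia L4 to L6 were taken after 24 hours. ChIP-seq measured H3K9ac and H3K27ac, acetylation marks of active promoters and enhancers, and H3K27me3, a mark of repressed chromatin, and ATAC-seq measured DNA open to a transposase. Each mark and surgery had 2 ChIP samples of 10 pooled mice and 2 inputs, and ATAC used 3 samples a surgery, a single animal in each. A single list per assay and surgery was deposited, made from the pooled samples. The spread between replicates is therefore unknown and no test between surgeries was made.

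The lists differed in size, from 43803 to 75824 peaks for H3K27ac, from 50332 to 89647 for H3K9ac, from 153556 to 174605 for ATAC and from 90011 to 154055 for H3K27me3, and every count below moves with this. Read totals of the samples were not used here, so the depth is unknown. In whole ganglia, fewer cells of a type and a lower signal per cell cannot be told apart. Marker genes separated the tissue from others only in part. Of 8 sensory neuron genes, 8 had an ATAC peak at a gene end in each list, but only 1, 1, 1 and 2 an H3K9ac peak after Sham, SNA, Lam and DCA, the same numbers an H3K27ac peak, and 6, 5, 6 and 2 an H3K27me3 peak. Of 4 genes of skeletal muscle and keratinocytes, 2, 2, 3 and 2 had an ATAC peak at a gene end, and none had an H3K9ac or H3K27ac peak in its window. Of 10 macrophage genes, 1 (Sham), 1 (SNA), 0 (Lam) and 3 (DCA) had an H3K9ac peak at a gene end, with 10, 16, 11 and 16 H3K9ac peaks in their windows. Aif1 alone held 2, 7, 3 and 7 of these window peaks. The same windows held 9, 9, 9 and 12 H3K27ac peaks and 55, 56, 40 and 49 ATAC peaks. The 4 neutrophil genes had no H3K9ac peak at a gene end and 1 in their windows in each list. The part of these cells in the results below was not tested.

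The sequences just upstream of the start show the members on which the results turn. The first 4 are ligands that inflammatory signals induce and the last 4, like Cxcl1, carried acetylation round their own start with no gene from outside the family close by. Each is the 250 bases before the transcription start from the RefSeq promoters of GRCm38.p6, written 5′ to 3′ in the direction of the gene. Capitals mark matches to the NF-kB consensus and to the AP-1 motif TGANTCA. These 8 were chosen after their values were seen.
Cxcl1, chr5:90890995-90891244, forward strand: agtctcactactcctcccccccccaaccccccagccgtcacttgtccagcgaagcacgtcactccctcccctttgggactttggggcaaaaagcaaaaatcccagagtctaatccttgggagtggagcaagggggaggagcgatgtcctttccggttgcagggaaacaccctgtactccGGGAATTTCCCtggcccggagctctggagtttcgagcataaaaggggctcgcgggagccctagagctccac
Cxcl2, chr5:90903649-90903898, forward strand: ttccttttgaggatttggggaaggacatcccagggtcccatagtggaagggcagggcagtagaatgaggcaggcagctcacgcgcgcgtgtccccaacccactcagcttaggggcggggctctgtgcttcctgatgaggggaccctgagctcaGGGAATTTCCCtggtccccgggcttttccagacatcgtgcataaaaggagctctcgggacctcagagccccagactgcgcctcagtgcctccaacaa
Cxcl3, chr5:90785851-90786100, forward strand: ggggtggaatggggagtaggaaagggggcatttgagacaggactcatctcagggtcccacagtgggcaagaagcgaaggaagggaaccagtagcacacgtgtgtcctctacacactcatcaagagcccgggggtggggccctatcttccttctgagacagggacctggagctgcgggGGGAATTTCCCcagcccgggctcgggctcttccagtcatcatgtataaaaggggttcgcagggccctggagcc
Cxcl10, chr5:92348890-92349139, reverse strand: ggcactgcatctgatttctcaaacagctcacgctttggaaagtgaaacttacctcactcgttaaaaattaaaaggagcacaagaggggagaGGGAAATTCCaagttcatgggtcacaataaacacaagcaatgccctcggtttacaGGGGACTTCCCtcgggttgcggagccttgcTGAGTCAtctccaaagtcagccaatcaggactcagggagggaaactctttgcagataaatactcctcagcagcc
Cx3cl1, chr8:94771930-94772179, forward strand: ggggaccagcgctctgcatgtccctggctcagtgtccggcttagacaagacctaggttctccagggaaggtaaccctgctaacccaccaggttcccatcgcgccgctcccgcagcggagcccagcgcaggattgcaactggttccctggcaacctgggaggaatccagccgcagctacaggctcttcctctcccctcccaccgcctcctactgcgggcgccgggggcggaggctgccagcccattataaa
Cxcl12, chr6:117168285-117168534, forward strand: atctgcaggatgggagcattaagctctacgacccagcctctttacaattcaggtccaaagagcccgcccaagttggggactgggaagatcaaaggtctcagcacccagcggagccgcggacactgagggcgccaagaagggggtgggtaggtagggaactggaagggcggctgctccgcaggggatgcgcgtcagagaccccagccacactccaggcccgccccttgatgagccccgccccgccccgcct
Cxcr4, chr1:128592300-128592549, reverse strand: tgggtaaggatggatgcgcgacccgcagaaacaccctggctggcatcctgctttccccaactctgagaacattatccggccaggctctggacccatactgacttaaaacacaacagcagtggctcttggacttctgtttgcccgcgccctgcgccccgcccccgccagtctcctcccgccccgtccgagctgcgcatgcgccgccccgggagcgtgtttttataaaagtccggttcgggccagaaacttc
Ackr3, chr1:90203730-90203979, forward strand: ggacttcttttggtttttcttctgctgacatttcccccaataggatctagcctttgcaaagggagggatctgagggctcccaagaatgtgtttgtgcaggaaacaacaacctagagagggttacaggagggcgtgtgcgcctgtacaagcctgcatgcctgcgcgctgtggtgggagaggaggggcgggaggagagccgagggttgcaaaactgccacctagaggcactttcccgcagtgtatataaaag
Cxcl1, Cxcl2 and Cxcl3 had the same bases in capitals, 61 to 97 bases before the start, which hold overlapping matches on both strands. Cxcl10 had 3 NF-kB matches and 1 AP-1 match. The other 4 sequences had no match to either motif.

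The NF-kB consensus, searched on both strands from 250 bases before to 50 after the start, was found in 10 of the 47 members with a known start (21.3%), against 8.86% of 17492 genes. The 10 were Ackr2, Ccl1, Ccl20, Ccl9, Ccr1, Ccr3, Cxcl1, Cxcl10, Cxcl2 and Cxcl3. AP-1 (TGANTCA) was found in 7 members, or 14.9% against 7.03%, and the TATA box (TATAAA) in 13, or 27.7% against 13.3%. For STAT (TTCNNNGAA) the shares were 8.51% and 7.78%, for C/EBP (TTGCNNAA) 12.8% and 10.1%, for the ETS motif (GAGGAA) 34.0% and 27.5%, and for the CRE core (TGACG) 17.0% and 23.8%. The upstream 250 bases of the members had a median GC content of 49.2% and a median of 3 CpG, against 55.2% and 10 CpG over all genes in the table. A match describes letters in this window and not a site in use.

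Few chemokine system genes carried acetylation at their ends in any of the 4 surgeries. An H3K9ac peak within 1 kb of a gene end was present at 10 of 62 members after Sham, 11 after SNA, 11 after Lam and 16 after DCA. Over all protein-coding genes the shares were 49.1%, 50.6%, 49.7% and 59.3%, so the members, at 16.1%, 17.7%, 17.7% and 25.8%, lay at less than those shares in every list. H3K27ac marked the ends of 7, 10, 12 and 7 members in the same order, that is 11.3%, 16.1%, 19.4% and 11.3%, against 40.3%, 50.9%, 50.9% and 42.7% of all genes. ATAC peaks were at the ends of 28, 25, 27 and 28 members, or 45.2%, 40.3%, 43.5% and 45.2%, against 69.4%, 71.2%, 69.5% and 70.7%.

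Counted as peaks per length of window, the members were closer to other genes. Of the 62 members, 29 had neither an H3K9ac nor an H3K27ac peak in the window in any list, against 25.9% of all genes. The member windows, 1666 kb when merged, held 3.0, 4.08, 2.88 and 4.86 H3K9ac peaks per 100 kb after Sham, SNA, Lam and DCA, against 3.41, 4.97, 3.43 and 5.93 in the windows of all genes. For H3K27ac they were 2.88, 3.36, 3.54 and 2.46, against 2.78, 4.88, 4.33 and 3.02. For ATAC the densities were 8.52, 11.2, 9.60 and 10.0, against 8.14, 9.51, 8.82 and 8.87, so here the members lay above all genes in each list. The members are short, with a median gene length of 5.24 kb against 17.2 kb, and 22 of them had another protein-coding gene in the window. The gene nearest to a peak was a member for 39.6% to 57.6% of the acetylation peaks and for 73.7% to 77.8% of the ATAC peaks, so a part of the acetylation in these windows lay closer to a gene outside the chemokine system.

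**Figure D1:**
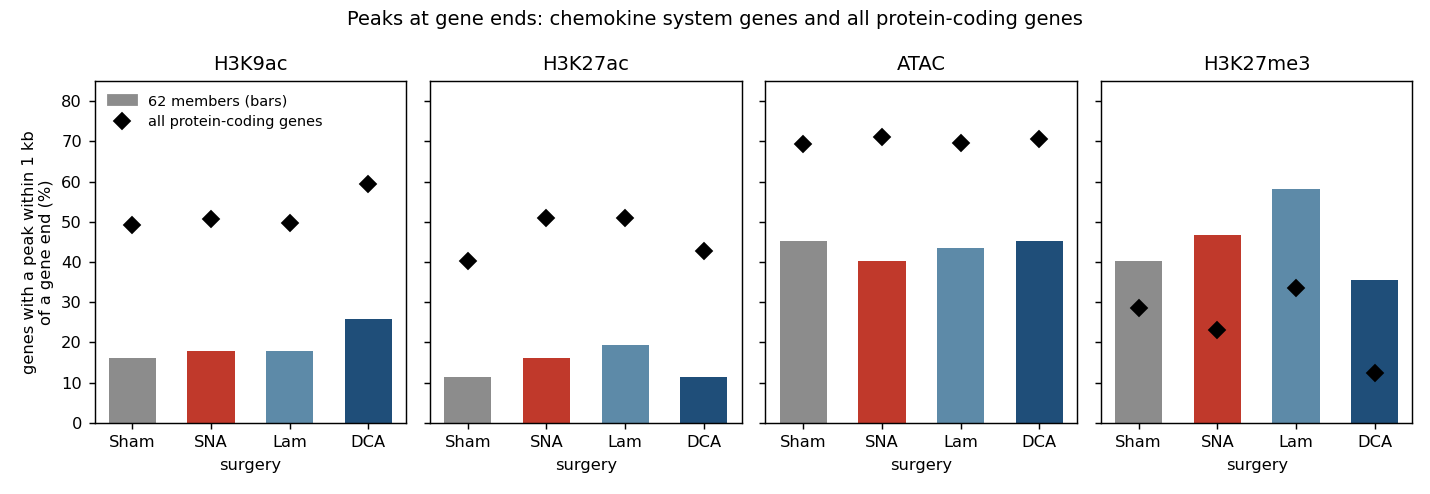
Share of genes with a peak within 1 kb of a gene end, in percent, for each assay and surgery (bars, the 62 chemokine system genes; diamonds, all 21887 protein-coding genes). The bars stay below the diamonds for H3K9ac, H3K27ac and ATAC and above them for H3K27me3.

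H3K27me3 had the opposite order. A peak at a gene end was listed for 25, 29, 36 and 22 members after Sham, SNA, Lam and DCA, or 40.3%, 46.8%, 58.1% and 35.5%, against 28.6%, 23%, 33.4% and 12.3% of all genes. Such a peak in all 4 lists was found for 8 members, against 5.30% of all genes. They were the inflammatory ligands Ccl12, Ccl8, Cxcl5 and Cxcl2, the other ligands Cxcl14, Ccl24 and Cxcl12, and the receptor Ccr2. With the lists cut to equal size, only Ccl12 and Cxcl14 kept a peak in all 4. Ccl8, Cxcl5, Cxcl2, Ccl24 and Cxcl12 then had none at a gene end after SNA, and Ccr2 had none after Lam. The H3K27me3 peaks in member windows were weak. Their median fold enrichment was 1.10, 1.12, 1.19 and 1.22 in the 4 lists. None of the 116, 137, 179 and 98 had a q of 0.05 or less. The whole H3K27me3 lists were of the same kind, with 1.31%, 0.154%, 0.595% and 0.0478% of their peaks at that q, so these positions are a description only.

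Of the 16 inflammatory ligands, 12 had an ATAC peak at a gene end in at least 1 list, 5 an H3K9ac peak and 2 an H3K27ac peak. Over all genes the shares were 78.2%, 61.3% and 57.0%, and ATAC was the most common there too. The ATAC count was near the share of all genes only when taken over at least 1 list. In the single lists it was 6, 8, 9 and 8 of 16 (Sham, SNA, Lam, DCA), against 69.4% to 71.2% of all genes. An ATAC peak in all 4 lists was found for 4 of the 16, against 61.9%. Cxcl1, Cxcl2, Cxcl3 and Ccl7 are described here although the rule for named genes did not take them, and they were chosen after their values were seen.

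Cxcl1 (chr5:90891245-90893121), a neutrophil attractant with the NF-kB match shown above, had an ATAC peak across its start in all 4 lists, with a fold enrichment over the caller's background (the authors' value, as for every fold enrichment here) of 2.79 (Sham), 2.90 (SNA), 2.69 (Lam) and 2.79 (DCA). Ranked by p within its own list, where a higher percentile is a stronger peak, each of these lay between the 91.2th and the 91.9th percentile of its list. H3K9ac at the same place ranked lower in its lists, with a fold enrichment of 3.32, 2.03, 2.41 and 3.29 and at percentiles 30.4, 0.867, 21.0 and 49.4. The −log10 q of these H3K9ac peaks was 0.944, 0.425, 1.45 and 4.71, so that those after Sham and SNA missed a q of 0.05. H3K27ac gave a peak there in the SNA list alone, from 220 bases before to 366 after the start, with a fold enrichment of 3.66 and at the 37.9th percentile. With the lists cut to equal size, neither this peak nor the H3K9ac peak after SNA was kept.

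Cxcl2 and Cxcl3, neighbours of Cxcl1 with which they share a receptor, had ATAC peaks and no acetylation. Cxcl3 had an ATAC peak within 1 kb of the start in all 4 lists, the strongest with a fold enrichment of 2.56 (Sham), 1.97 (SNA), 1.76 (Lam) and 2.17 (DCA). Cxcl2 had no ATAC peak in its window after Sham and 2 after each of SNA, Lam and DCA, the strongest of them with a fold enrichment of 2.02, 2.36 and 1.96. In the DCA list that peak lay more than 3 kb before the start, and the one at the start had 1.86.

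Cxcl5, another gene of this cluster that also attracts neutrophils, was 1 of 2 members called in the same direction by both acetylation marks after SNA. The share of all genes called alike by both marks was not counted, so these 2 calls are a description only. Against Sham, Cxcl5 lost its H3K9ac and its H3K27ac peak. The H3K9ac peak overlapped the lower-coordinate end of the gene (chr5:90759298-90761625) with a fold enrichment of 4.02 after Sham and 2.99 after DCA, and there was none after SNA or Lam. The H3K27ac peak lay about 2 kb outside the gene, at 9.97 after Sham, 5.81 after Lam and 5.93 after DCA. ATAC peaks at the gene end were present in all 4 lists, at 2.15, 2.63, 2.25 and 2.58, the highest being the SNA value.

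Ccl2, the main attractant of monocytes, had an ATAC peak over its lower-coordinate end in all 4 lists (chr11:82035577-82037452; the strand was not given for it). The fold enrichment was 3.83 (Sham), 4.05 (SNA), 2.65 (Lam) and 2.62 (DCA), at percentiles 96.0, 96.1, 92.2 and 91.5. An H3K9ac peak within 1 kb of this end was present after SNA, at 3.05, and after DCA, where 2 peaks had 3.27 and 3.57, and neither control list had one. When the lists were cut to equal size, the peak after DCA stayed and that after SNA did not. H3K27ac had 0 peaks in the Ccl2 window after Sham and DCA, 2 after SNA and 1 after Lam, all over 2 kb from the gene.

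Ccl7, the next gene to Ccl2 and also a monocyte attractant, had an ATAC peak at its end after Sham (2.68), Lam (2.69) and DCA (2.27) and none there after SNA. Ccl11 and Ccl1 further along the same cluster had an ATAC peak at a gene end in 2 or fewer lists, and so did Ccl12 and Ccl8. The cluster of 6 genes from Ccl2 to Ccl1 held 2, 5, 1 and 4 H3K9ac peaks and 5, 5, 8 and 8 ATAC peaks after Sham, SNA, Lam and DCA.

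Cxcl10, an interferon-induced ligand of T cells, had acetylation on its upstream side in all 4 lists. The window held 1, 2, 3 and 4 H3K9ac peaks, 7, 4, 2 and 4 H3K27ac peaks and 3, 5, 3 and 4 ATAC peaks (Sham, SNA, Lam, DCA). Between 4 and 6 kb before the start lay the strongest H3K9ac peak of each list, with fold enrichments of 4.49, 4.71, 4.83 and 5.26. At the start itself, H3K9ac had a weak peak after Lam (1.97, at the 0.155th percentile) and one after DCA (3.50, at the 52.1th percentile). Cxcl10 overlaps Art3, a gene outside the family, and a peak here cannot be given to either gene. Cxcl9, its neighbour and also induced by interferon, had H3K9ac counts of 1, 1, 1 and 3, H3K27ac counts of 1, 3, 2 and 2 and ATAC counts of 1, 2, 1 and 2, and an H3K9ac peak at a gene end after DCA alone, at 3.42. Ccl5, an attractant of T cells and monocytes, had 1 H3K9ac peak in each list, no H3K27ac peak, and 2, 4, 7 and 2 ATAC peaks.

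Among the other ligands, Cx3cl1 and Cxcl12 stood away from protein-coding genes outside the family, at 37.4 and 452 kb. The members Ccl22 and Ccl17 lay nearer to Cx3cl1 than that. Cx3cl1 (chr8:94772180-94782427), the membrane-bound chemokine of neurons, carried both acetylation marks and ATAC across its start in all 4 lists. The H3K9ac peak at the start had a fold enrichment of 3.40 (Sham), 5.48 (SNA), 5.56 (Lam) and 4.38 (DCA), at percentiles 64.0, 95.6, 98.5 and 85.7. H3K27ac gave 3.08, 5.29, 3.68 and 4.79. With the lists cut to equal size, the H3K27ac peak after Lam was not kept. ATAC gave 2.28, 2.46, 2.69 and 2.36. A second H3K27ac position 6 to 8 kb into the gene was present in all 4 lists too. The Cx3cl1 window held 4, 6, 4 and 5 H3K9ac peaks, 2, 3, 5 and 3 H3K27ac peaks and 3, 7, 7 and 5 ATAC peaks.

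Cxcl12 (chr6:117168535-117181368), the ligand of Cxcr4 and Ackr3, was the other member called by both acetylation marks after SNA, here as gained against Sham. H3K9ac had no peak in the window after Sham, 1 after SNA (fold enrichment 3.70), 1 after Lam (2.83) and 2 after DCA, of which that at the start had 4.30 and ranked at the 87.2th percentile. H3K27ac had 1 peak after SNA (3.82) and 1 after Lam (3.78) and none after Sham and DCA. The 2 H3K27ac peaks were not kept when the lists were cut to equal size, while H3K9ac after SNA, Lam and DCA kept a peak near the start. ATAC was open across the start in all 4 lists, at 2.08, 2.38, 2.23 and 2.30, with 5, 5, 3 and 4 peaks in the window. The Lam list, without axotomy, had both acetylation peaks as the SNA list did.

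**Figure D2:**
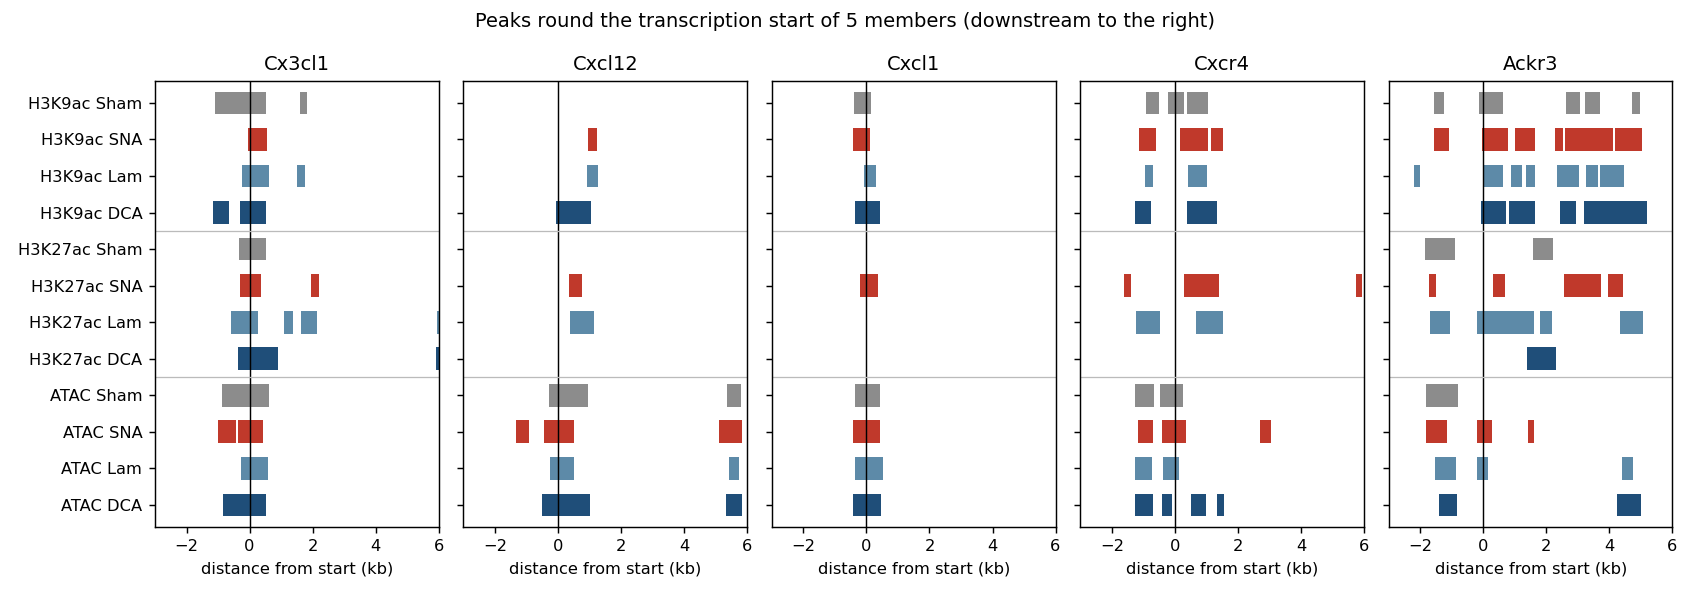
Peaks of H3K9ac, H3K27ac and ATAC in the 4 lists round the start of Cx3cl1, Cxcl12, Cxcl1, Cxcr4 and Ackr3, as distance from the transcription start in kb with downstream to the right. ATAC covers the start of Cx3cl1, Cxcl12 and Cxcl1 in all 4 lists, while H3K27ac peaks near the starts of Cxcl12 and Cxcr4 appear after SNA and Lam only and at Cxcl1 after SNA only.

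The remaining ligands with many peaks had another gene beside them. Ccl25, a thymic and gut chemokine, starts 65 bp from Elavl1, and its start carried the strongest ATAC peaks of the family, with fold enrichments of 6.58, 7.16, 7.11 and 7.54. H3K9ac was at this start in all 4 lists and H3K27ac in all but Sham. Its window held 3, 3, 4 and 5 H3K9ac peaks, 1, 5, 4 and 3 H3K27ac peaks and 6, 8, 7 and 6 ATAC peaks. Cxcl16, a transmembrane ligand, overlaps Zmynd15 and had 4, 6, 4 and 7 H3K9ac peaks, 6, 5, 5 and 7 H3K27ac peaks and 5, 7, 6 and 8 ATAC peaks. Cxcl17, a mucosal chemokine 1.57 kb from Lipe, had 7, 5, 5 and 8 H3K9ac peaks, 4, 3, 4 and 1 H3K27ac peaks and 8, 12, 7 and 7 ATAC peaks. Its gene end had an H3K9ac peak after DCA alone.

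Ccl17 and Ccl22, ligands of Ccr4 that lie on either side of Cx3cl1, had at most 1 H3K27ac peak in a list. Ccl17 had 0, 2, 1 and 5 H3K9ac peaks, 0, 0, 1 and 0 H3K27ac peaks and 5, 2, 3 and 4 ATAC peaks. Ccl22 had 1 H3K9ac peak after DCA, 1 H3K27ac peak after Lam and 3, 5, 4 and 5 ATAC peaks. Cxcl14, a chemokine of epithelia, had an H3K27ac peak after Sham alone, no H3K9ac and 3, 5, 7 and 7 ATAC peaks. Ccl24 and Ccl26, neighbours that attract eosinophils, had no H3K9ac. Ccl26 had 2, 0, 2 and 2 H3K27ac peaks and 3, 4, 4 and 4 ATAC peaks, and Ccl24 had 1, 0, 1 and 1 and 3, 3, 4 and 4.

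Of the 19 receptors, 4 had an H3K9ac peak at a gene end in at least 1 list and 14 an ATAC peak, against 61.3% and 78.2% of all genes. In the single lists the ATAC count was 10, 6, 6 and 9 of 19, against 69.4% to 71.2% of all genes. An ATAC peak in all 4 lists was found for 3 receptors, against 61.9% of all genes. Cxcr4 (chr1:128588199-128592299), the receptor of Cxcl12, lies 171 kb from the next gene outside the family. H3K9ac lay round its start in all 4 lists, with strongest fold enrichments of 3.91 (Sham), 3.90 (SNA), 2.41 (Lam) and 3.59 (DCA) and 3, 3, 2 and 2 peaks. H3K27ac had 0, 4, 3 and 0 peaks, with a strongest fold enrichment of 4.04 after SNA and 3.29 after Lam, and so was present after the 2 surgeries with the larger lists. None of these H3K27ac peaks within 1 kb of a gene end was kept in lists of equal size. ATAC peaks lay at the start in all 4 lists, at 2.47, 2.50, 2.30 and 1.91, and a second ATAC peak about 1 kb before the start was also found in all 4.

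The receptors with the highest counts stood beside other genes. Ccr10, a receptor of skin-homing T cells, overlaps Cntnap1 and had 8, 7, 4 and 11 H3K9ac peaks, 6, 10, 7 and 10 H3K27ac peaks and 8, 9, 5 and 6 ATAC peaks. Its strongest ATAC peak, at 4.27, 4.31, 4.31 and 3.68, lay over 1 kb outside Ccr10. Cxcr5, the receptor of B cell follicles, overlaps Bcl9l and had 3, 4, 2 and 5 H3K9ac peaks, 5, 6, 4 and 1 H3K27ac peaks and 6, 8, 5 and 13 ATAC peaks. Xcr1, a receptor of dendritic cells, lies 416 bp from Fyco1 and had 3, 4, 3 and 2 H3K9ac peaks, 1, 2, 1 and 2 H3K27ac peaks and 2, 5, 1 and 3 ATAC peaks, in each list with both marks at the shared end.

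Several receptors of monocytes, macrophages and neutrophils had no acetylation peak in the window. Cx3cr1, the receptor of Cx3cl1 on macrophages and microglia, had 0 H3K9ac and 0 H3K27ac peaks in every list and 4, 7, 7 and 3 ATAC peaks. Ccr1 and Ccr2, receptors of monocytes and macrophages, also had no acetylation in any list, and at most 1 ATAC peak in a list. Ccr3 had neither, and Cxcr1 and Cxcr2, receptors of neutrophils, had ATAC peaks only. Ccr4 had 1, 0, 1 and 1 H3K27ac peaks, no H3K9ac and 6, 9, 6 and 8 ATAC peaks. Ccr7, which guides cells to lymph nodes, had 0, 2, 0 and 1 H3K9ac peaks, 1, 0, 1 and 0 H3K27ac peaks and 8, 4, 7 and 5 ATAC peaks.

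Of the atypical receptors, Ackr3 had the most acetylation peaks. Ackr3 (chr1:90203980-90215724), the scavenger of Cxcl12, lies 50.5 kb from the next gene and had 6, 8, 7 and 5 H3K9ac peaks, 26 over the 4 lists against 19 for Cx3cl1. The H3K9ac peak at the start had a fold enrichment of 5.20 (Sham), 5.65 (SNA), 3.41 (Lam) and 4.14 (DCA), at percentiles 92.0, 93.5, 84.2 and 81.7. H3K27ac counts were 2, 4, 5 and 1, with a peak within 1 kb of the start after Sham, SNA and Lam and not after DCA. ATAC covered the start after SNA (2.58) and Lam (2.03), while a position about 1 kb before the start was open in all 4 lists. Ackr4 had H3K9ac peaks after DCA alone (2), 1 H3K27ac peak after Sham and 8, 9, 10 and 4 ATAC peaks, and it overlaps Acad11. Ackr2 had 1 H3K9ac peak after SNA, 1 H3K27ac peak after Lam and 2, 6, 6 and 7 ATAC peaks. Ackr1, the erythrocyte and endothelial receptor, overlaps Cadm3. It had no H3K9ac, 2, 0, 1 and 1 H3K27ac peaks and 4, 4, 6 and 3 ATAC peaks.

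**Figure D3:**
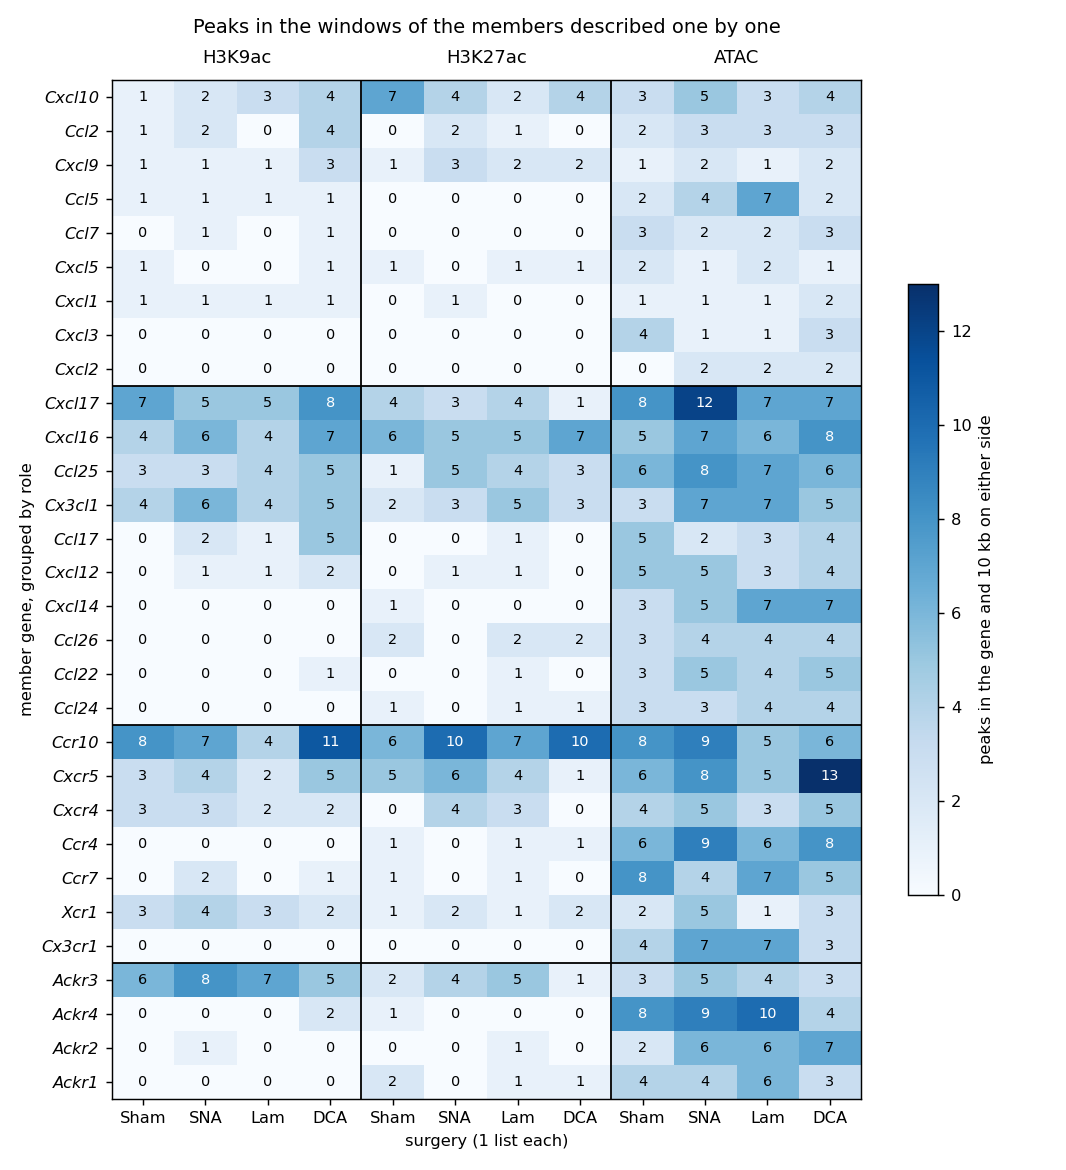
Number of peaks in the gene and 10 kb on either side for 30 members, in rows grouped by role (inflammatory ligands, other ligands, receptors, atypical receptors), in the 12 lists of H3K9ac, H3K27ac and ATAC, with darker cells for more peaks. Ccr10, Cxcl17, Cxcl16 and Ackr3 fill the acetylation columns, while Cx3cr1, Cxcl2 and Cxcl3 have 0 in all 8.

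Other members had few peaks or none. There were 7 genes with 0 peaks in all 16 lists, namely Ccl21a, Ccl21b, Ccl21c, Ccl21d, Ccl27b, Ccl19 and Cxcr3, against 6.67% of all genes. Ccl21a to Ccl21d and Ccl27a and Ccl27b are near-identical copies that reads of 50 bases may not tell apart, and Ccl21c is placed below the lowest peak of chromosome 4, so these zeros are uncertain. Ccl28, a mucosal ligand, had an ATAC peak about 8 kb into the gene in all 4 lists, at 3.14, 3.50, 3.24 and 3.30. H3K27ac was at the same place after SNA (4.62) and Lam (6.38) and H3K9ac after DCA (5.35). Ccl3 and Ccl4 overlap in the annotation and had neither acetylation mark.

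After SNA against Sham, member windows had more peaks in all 4 assays, and the whole lists did too. H3K9ac went from 50 to 68 peaks, a log2 ratio of 0.44 with a 95% interval of -0.10 to 1.00 that covers counting error only, against 0.54 in the windows of all genes. ATAC went from 142 to 186, a log2 ratio of 0.39 (0.07 to 0.71) against 0.22. H3K27ac went from 48 to 56, a log2 ratio of 0.22 (-0.36 to 0.81) against 0.81. H3K27me3 went from 116 to 137, a log2 ratio of 0.24 (-0.13 to 0.61) against 0.11. With the lists cut to equal size, the H3K27ac counts were 48 after Sham and 25 after SNA, a log2 ratio of -0.94 (-1.70 to -0.21), so the direction turned with the list size. It turned for H3K9ac as well, at 50 and 48 peaks and -0.06 (-0.66 to 0.54), and for H3K27me3, at -0.14. ATAC was then at 0.16 (-0.17 to 0.50), an interval that holds 0.

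Members that gained or lost all peaks of a mark after SNA were counted next. H3K9ac called 6 members gained, where 4.33% of all genes were, and 1 lost, where 2.28% were. The 6 were Ccl7, Ccr7, Cxcl12, Ccl17, Ackr2 and Cxcr6, and the 1 lost was Cxcl5. Of the gained, Cxcr6 overlaps Fyco1, Ackr2 lies 3.28 kb from Cyp8b1 and Ccl17 lies 7.78 kb from Ciapin1. A call on the window does not tell these genes apart. The peak that called Ccl7 gained also lies in the window of Ccl2. For H3K27ac 4 members were gained (background 7.69%) and 10 lost (background 4.84%). The gained were Cxcr4, Ccl2, Cxcl1 and Cxcl12, and the lost were Ackr1, Ccl6, Ccr7, Cxcl14, Cxcl5, Cxcl15, Ccl26, Ccl24, Ackr4 and Ccr4. For ATAC 3 were gained (2.91%) and 6 lost (2.76%), the gained being Xcl1, Ccl6 and Cxcl2 and the lost including Ccl20, Ccl12 and Ccl1. Of the 62 members, 15 had more H3K9ac peaks after SNA than after Sham and 3 fewer, against 38.9% and 11.4% of all genes. The other 44 had equal numbers. Only 18 members had an H3K9ac peak in the window after Sham and 23 after SNA, so most of the 44 had 0 in both lists.

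Of the 10 members that lost H3K27ac after SNA, 6 had an H3K27ac region that the Sham, Lam and DCA lists shared and the SNA list lacked. The lost call itself requires a Sham peak and no SNA peak, so only the peaks after Lam and DCA were open. The same share among all genes that lost H3K27ac was not counted. Among the 93 regions in the member windows, 9 were shared and lacking in this way, or 9.68%, against 5.50% over the whole lists. They were narrow, with a median width of 525 bp against 1719 bp for the 15 regions found in all 4 lists, and strong, with a median fold enrichment of 6.13 against 4.55, as over the whole lists, at 6.87 against 4.76. ATAC overlapped 2 of the 9 and H3K9ac 1, whereas 14 of the 15 shared regions had each. Over the whole lists, 5676 such regions had ATAC in 34.7% and H3K9ac in 20.3%, against 91.0% and 99.1% of 13987 regions in all 4 lists. The cause was not tested.

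Of these regions, 3 with high fold enrichments lay about 3 kb after the start of Cxcl10 (10.5 after Sham, 7.57 after Lam and 5.93 after DCA), about 8 kb outside Cxcl9 (11.3, 6.85 and 7.91) and beside Ccl26 (9.92, 7.11 and 9.97). The others lay in the windows of Ackr1, Ccl6, Cxcl5, Ccr4 and Cxcl16, with a second beside Ccl26 that Ccl24 shares. The region of Cxcl16 was the one with H3K9ac, in 4 lists.

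**Figure D4:**
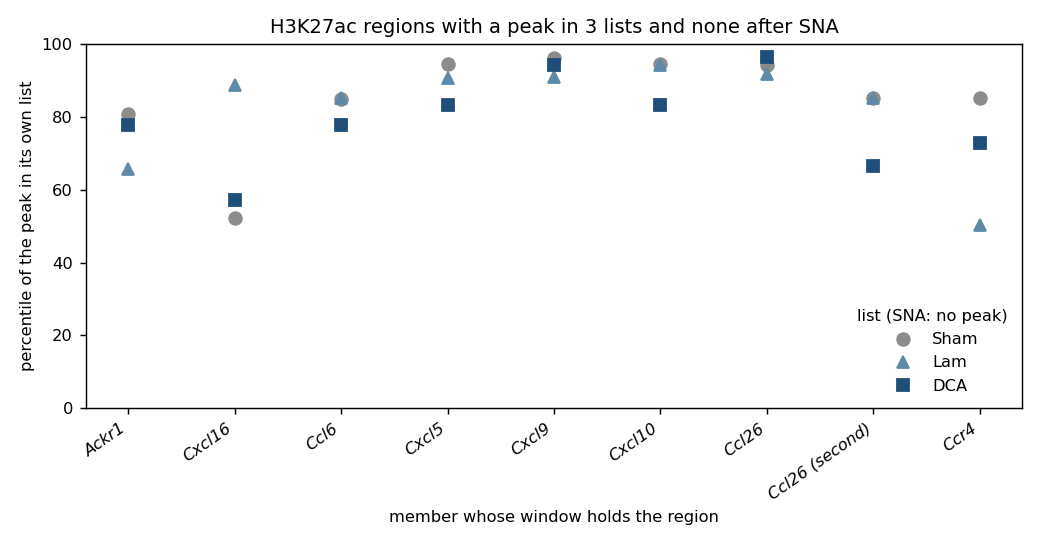
Percentile of the H3K27ac peak within its own list for the 9 regions in member windows that have a peak after Sham, Lam and DCA and none after SNA, each named by the member whose window holds it. All but the Cxcl16 and Ccr4 regions lie above the 65th percentile in the 3 lists.

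After DCA against Lam, H3K9ac and H3K27ac had log2 ratios of opposite sign, as the whole lists had. H3K9ac went from 48 to 81 member peaks, a log2 ratio of 0.75 (0.22 to 1.3) against 0.79 for all genes, and the ratio was 0.09 with lists of equal size. H3K9ac called 7 members gained (background 6.93%), namely Ccl2, Ccl7, Ccr7, Cxcl5, Ccl22, Ackr4 and Cxcr6, and 1 lost (0.507%), Ccl1. Ackr4 overlaps Acad11 and Cxcr6 overlaps Fyco1, so these gains cannot be given to a single gene. H3K27ac went from 59 to 41, a log2 ratio of -0.53 (-1.14 to 0.07) against -0.52, and with lists of equal size it was -0.07 (38 against 40 peaks). In the deposited lists 0 members gained (2.46%) and 8 lost (6.76%) H3K27ac. The 8 were Cxcr4, Ccl2, Ccr7, Ccl28, Cxcl12, Ccl22, Ccl17 and Ackr2. ATAC had 160 and 167 peaks, a log2 ratio of 0.06 (-0.26 to 0.38) against 0.01, with 4 gained (3.39%) and 1 lost (2.27%). H3K27me3 went from 179 to 98, a log2 ratio of -0.87 (-1.24 to -0.51) against -1.04.

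The 2 control surgeries, compared in the same way, differed too. Lam against Sham called 2 members gained and 2 lost for H3K9ac (3.49% and 3.48%), 6 gained and 3 lost for H3K27ac (7.08% and 3.26%) and 3 gained and 6 lost for ATAC (2.42% and 3.62%). Cxcl12 was gained in both acetylation marks here too, and Cxcr4 in H3K27ac. The SNA and Lam comparisons share the Sham lists. The member windows had log2 ratios of -0.06, 0.30, 0.17 and 0.63 for H3K9ac, H3K27ac, ATAC and H3K27me3, against 0.01, 0.64, 0.11 and 0.42 for all genes.

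**Figure D5:**
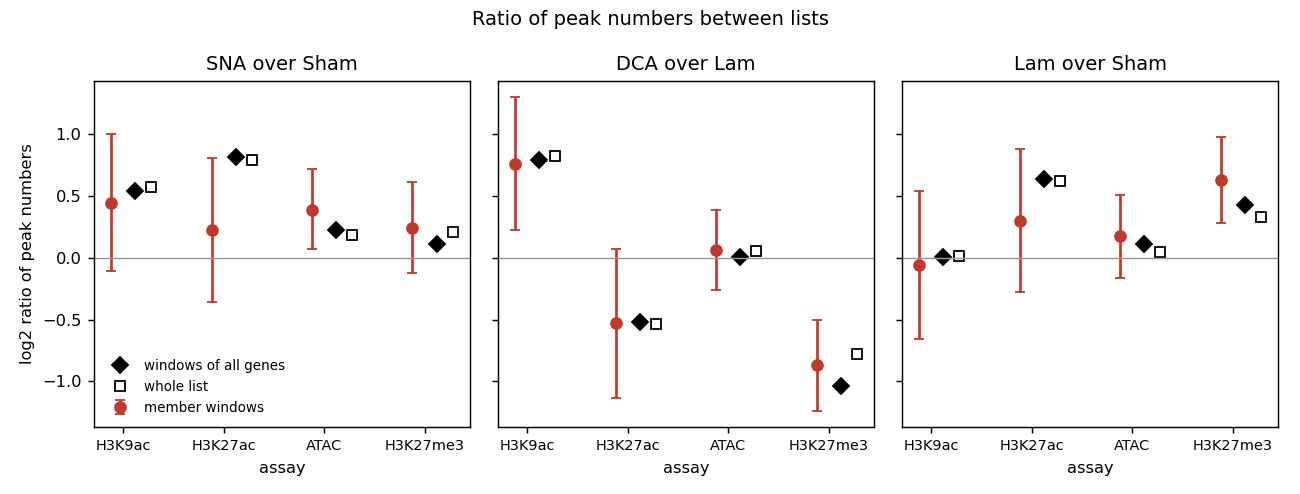
log2 ratio of peak numbers between lists for each assay, with member windows as circles and 95% intervals for counting error, the windows of all genes as diamonds and the whole lists as squares. The interval of the members holds the value of all genes in each case but H3K27ac after SNA against Sham, where it ends just below it.

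The share of injury peaks with no match in the control list was set beside that of the whole lists, which lay inside the interval of the members in each case but H3K27me3 after DCA. Of the H3K9ac member peaks after SNA, 44.1% (95% exact binomial interval 32.1% to 56.7%) overlapped no Sham peak, against 49.5% of the whole SNA list. For H3K27ac the shares were 60.7% (46.8% to 73.5%) and 65.3%, and for ATAC 58.6% (51.2% to 65.8%) and 59.6%. After DCA against Lam they were 55.6% (44.1% to 66.6%) and 61.8% for H3K9ac, 19.5% (8.82% to 34.9%) and 27.9% for H3K27ac and 52.7% (44.8% to 60.5%) and 57.9% for ATAC. For H3K27me3 they were 62.8% (54.1% to 70.9%) and 70.5% after SNA, and 49.0% (38.7% to 59.3%) and 61.6% after DCA. Merged over the 4 lists, 25 of 95 H3K9ac regions were found in all 4, 15 of 93 for H3K27ac and 45 of 367 for ATAC, or 26.3%, 16.1% and 12.3%, against 18.8%, 13.6% and 10.0% over the whole lists. Of the 25 shared H3K9ac regions, 23 overlapped an ATAC peak, and the share over the whole lists was not counted.

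A list of 32 other genes of chemokine signalling and control was counted in the same way. Most act inside the cell, and it also holds the chemokines Pf4 and Ppbp and the receptors Ccrl2 and Cmklr1, which the symbol rule does not take. Of the 32, 23, 23, 21 and 24 had an H3K9ac peak at a gene end after Sham, SNA, Lam and DCA, 23, 22, 23 and 22 an H3K27ac peak and 28, 28, 26 and 26 an ATAC peak. Over all genes the shares ran from 49.1% to 59.3% for H3K9ac, 40.3% to 50.9% for H3K27ac and 69.4% to 71.2% for ATAC. Against Sham, 21 of the 32 had more H3K9ac peaks after SNA and 4 fewer, where 38.9% of all genes had more and 11.4% fewer. The windows grow with gene length, which was not taken into account, and the SNA list was the larger (74652 against 50332 peaks). At gene ends the count was 23 after both surgeries. Nfkbia, the inhibitor of NF-kB and itself its target, had 4, 13, 7 and 10 H3K9ac peaks and 3, 10, 7 and 4 H3K27ac peaks. Stat3, a transcription factor of cytokine signalling, had 10, 12, 5 and 23 H3K9ac peaks and 7, 20, 15 and 9 ATAC peaks. Gnai2, a G protein subunit through which chemokine receptors signal, had 16, 18, 16 and 19 H3K9ac peaks. Dock2 and Rac2, which drive leukocyte migration, had at most 4 H3K9ac peaks in a list. Their H3K27ac counts were 0, 7, 2 and 2 for Dock2 and 1, 3, 2 and 3 for Rac2. Other genes of the 32 had many H3K9ac peaks, with 31, 54, 40 and 57 for Elmo1 and 27, 38, 23 and 43 for Prex1.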

How the data were processed

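The submitters' processing notes give mm10 as the genome build. Aligner, peak caller and settings are not given in the sources used here. The series text says that the replicates of each condition were pooled before peaks were called. The deposited lists have the narrow peak layout for H3K9ac, H3K27ac and ATAC and the broad layout for H3K27me3. Each deposited peak has a score (an integer of the authors' caller, not used), a fold enrichment (a linear ratio over background), and a −log10 p and −log10 q, all made by the authors.

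Genes and promoters came from RefSeq (GRCm38.p6), whose table gives no exons, so exons, introns and UTRs were not assigned. Promoters matched 47 of 62 members. A peak counted when it overlapped the gene and 10 kb on either side by 1 bp. ATAC peaks with the same coordinates were counted once. A peak at a gene end lay within 1 kb of either end of the gene. Lists of equal size hold the peaks with the highest −log10 p. Gained means at least 1 peak against 0 in the control, and lost the reverse. Intervals of ratios and shares are exact and cover counting error only. With 1 pooled list a group there is no replicate test, and the depth is unknown.

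Values in every list are given for members with a peak at a gene end in H3K9ac, H3K27ac or ATAC, at most 25 in the order of their total peaks, and for members gained or lost alike in 2 of these assays. Some results on single members are not reported here. The members and lists were chosen with earlier results of these data known. The counting was tested on simulated data. Alternatives changed the window, the q limit, the list size, the assignment of a peak, the membership and the overlap. Python 3.11.15 was used with numpy 2.4.6, pandas 2.3.3, scipy 1.17.1 and matplotlib 3.10.9.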

Additional observations from a re-analysis of the deposited data

How the results depend on the processing

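Of 54 settings of the log2 ratios, 49 moved them by less than their counting interval and none reversed a ratio whose interval left out 0. Such ratios were H3K9ac and H3K27me3 in DCA over Lam and ATAC in SNA over Sham. In lists of equal size all their intervals held 0, at -0.51 to 0.70, -0.54 to 0.28 and -0.17 to 0.50. With lists of equal size, the log2 ratio was -0.94 for H3K27ac and -0.14 for H3K27me3 in SNA over Sham, and 0.0893 for H3K9ac and -0.13 for H3K27me3 in DCA over Lam. Over gene ends alone, H3K27ac in SNA over Sham had 0.85. The share of peaks with no match depended on the overlap. A reciprocal overlap of 50% gave, for SNA, 66.2% (H3K9ac), 80.4% (H3K27ac), 74.7% (ATAC) and 89.8% (H3K27me3), and for DCA 77.8%, 53.7%, 64.7% and 77.6%. Counting peaks within 1 kb as shared gave 30.9%, 37.5%, 44.1% and 51.1% for SNA and 40.7%, 7.32%, 39.5% and 32.7% for DCA. At a q of 0.05 or less, H3K9ac in SNA had 57.9%, and with equal lists H3K27ac in SNA had 40%, H3K9ac in DCA 36% and H3K27me3 in DCA 73.5%. The q limit left no H3K27me3 peak in the member windows and gave no value there. No replicate could be left out, since each list pools its replicates. No paired analysis was possible because the lists hold no separate replicates. Depth limits weak peaks, such as those of H3K27me3, and is unknown here.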
